A study of Mus musculus with 16 samples.

Results

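The genes described here encode the subunits of RNA polymerases I, II and III and the general transcription factors that place these enzymes on promoters. They were taken as every probe on the array whose symbol begins with Polr1, Polr2, Polr3, Gtf2, Gtf3 or Taf followed by a digit, which gave 99 of 25697 probes and 62 genes. RNA came from 16 samples of small intestine, with 1 bead array each, and the samples were taken as separate mice. The 8 knockout mice (Hnf4aKO) carried loxP-flanked Hnf4a alleles (Hnf4a fl/fl) and the tamoxifen-inducible Cre recombinase VillinCreERT2, and their genotype is labelled Hnf4a-/-. The 8 wildtype mice (Hnf4aWT) lacked the Cre transgene. The protocol gives them as Hnf4a fl/fl, another label gives Hnf4a+/+, and which of these holds is not settled by the labels. Both groups received 1 mg of tamoxifen by gavage on each of 5 days, 14 Gy of whole-body gamma irradiation 3 weeks later, and were killed 96 hours after that, so that no unirradiated tissue serves as a baseline. The villin promoter drives Cre in the intestinal epithelium, so other cells of the wall keep Hnf4a, and Cre status goes with genotype. Ages are not given in the labels.

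RNA polymerase I makes the large ribosomal RNAs, RNA polymerase II makes messenger RNAs, and RNA polymerase III makes transfer RNAs, the smallest ribosomal RNA and other short RNAs. Each enzyme has its own large catalytic subunits, while several small subunits are common to all of them or to polymerases I and III. Polymerase II starts at promoters with TFIIA, TFIIB, TFIID, TFIIE, TFIIF and TFIIH, polymerase I with the TBP-containing SL1 complex, and polymerase III with TFIIIA, TFIIIB and TFIIIC. The intestinal epithelium renews itself continuously from dividing crypt cells, and irradiation kills many of these before the crypts regrow.

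Members of this machinery fell modestly in the knockout intestine, among the subunits of all 3 polymerases and among their factors. Of the 47 members bright enough to be tested, 18 fell, 1 rose (Taf9b, which encodes a paralogue of the TFIID subunit Taf9) and 28 did not pass the threshold, an adjusted p of 0.05 in limma over all 10143 genes tested. The 18 made up 38.3% of the tested members, while 17.2% of all tested genes were lower. For increases the share was 2.13% of members and 13.5% of all genes, and 30.7% of all genes passed in either direction. The 19 members past the threshold were also all the members with an unadjusted p under 0.05, and 18 of these were lower. At that level 22.9% of all tested genes were lower. The median log2 difference, knockout minus wildtype, was -0.19 over the members and -0.02 over all genes, and 40 of the 47 members had a negative difference (85.1%, against 53.2% of all genes). The falls were small, between -0.49 and -0.21 on the log2 scale, which leaves 71.1% to 86.3% of the wildtype intensity. The 18 genes lie on 11 chromosomes. With median scaling, which moved the median of all genes to -0.11, the members' median was -0.28 and 14 fell and 1 rose, while over all genes 1825 fell and 872 rose, against 1741 and 1374 with quantile normalisation. Polymerase subunits accounted for 9 of the falls (17 tested, median -0.25) and the factors for the other 9 (30 tested, median -0.13); the difference between these shares was not tested.

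**Figure D1:**
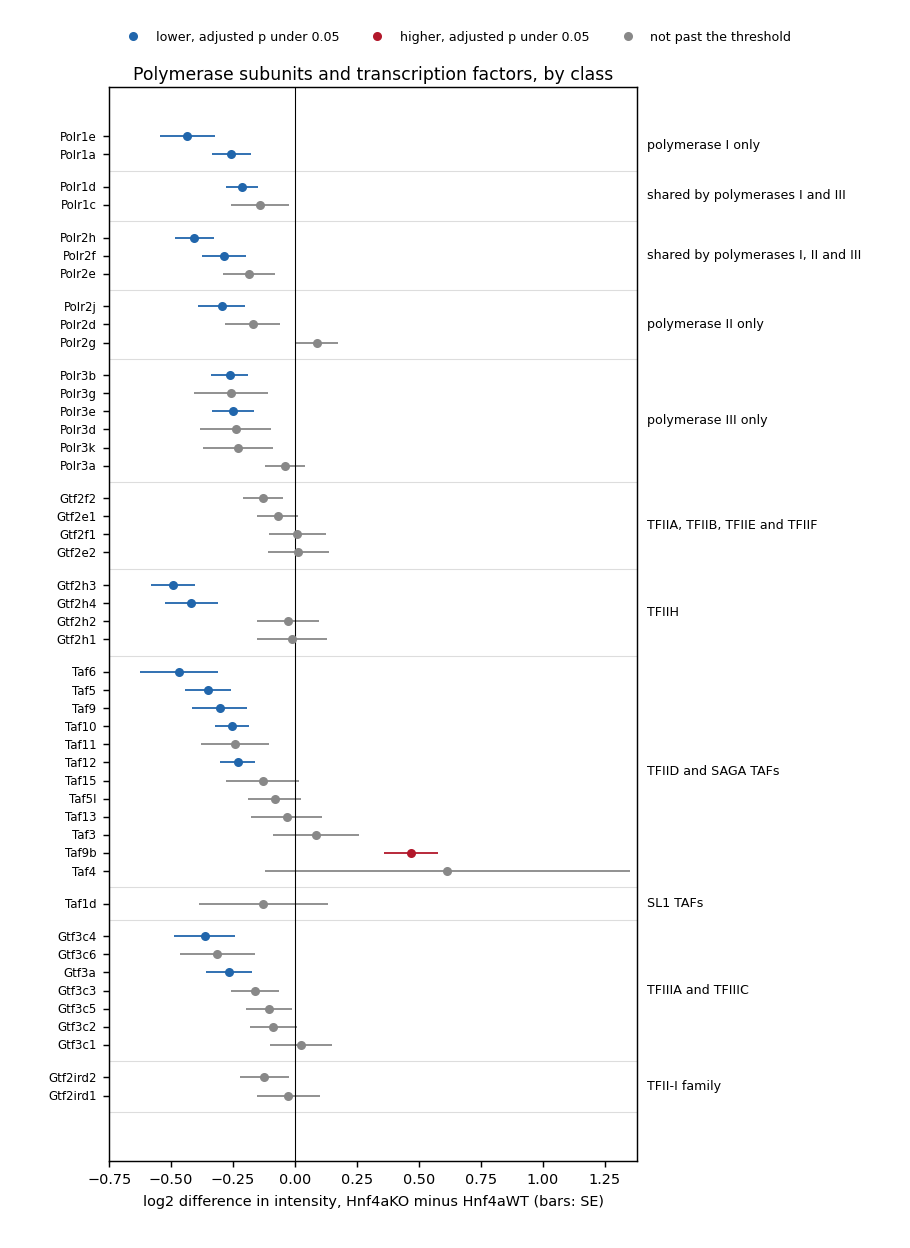
Log2 difference in normalised intensity, Hnf4aKO minus Hnf4aWT, for 46 of the 47 tested members, grouped by complex. Points are the limma estimates from 8 arrays per group and bars their standard errors; most points lie left of 0, 17 are past the threshold on that side and Taf9b is past it on the right.

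The signal of the targeted gene was lower in the knockout tissue. Hnf4a had 10.17, 10.50 and 10.71 normalised log2 units at the lowest, median and highest of the knockout arrays, against 11.91, 12.24 and 12.50 on the wildtype arrays. The groups did not overlap, and the knockout signal was 29.8% of wildtype (log2 difference -1.75, SE 0.10, limma adjusted p 2.07e-09; exact two-sided permutation p 0.000155, the smallest that 12870 splits can give). It comes from 1 probe whose place relative to the deleted part is not stated in the labels or files. Detected probes made up 46.9% to 53.1% of each array, and Pearson correlations between arrays lay between 0.951 and 0.993. The array names in the file headers carry 2 number prefixes, which were taken here as 2 slides. No label names a slide. Each slide so defined held 4 knockout and 4 wildtype arrays. Knockout arrays 1 and 6 lay at opposite ends of the second principal component (37.4 and -36.2); without them 16 members fell and 1 rose.

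Whole tissue was measured, so fewer cells of a type and less RNA per cell cannot be told apart. The epithelial markers were strong in both groups: the 9 that were tested (Krt8, Cdh1, Vil1 and others) averaged 12.23 to 12.73 log2 units on the knockout arrays and 12.31 to 12.70 on the wildtype arrays, and 1 of them, Krt20, rose. Of 4 enterocyte markers none passed the threshold, with averages of 11.91 to 13.92 in knockout and 12.54 to 13.70 in wildtype intestine. Fabp2 was detected on no array and Fabp1 on 4. Cell cycle genes moved with the members: 8 of 10 fell (median -0.51), and their average was 9.50 to 10.17 on the knockout arrays, below the 10.19 to 10.35 of every wildtype array. Macrophage markers moved the other way, 9 of 10 being higher (median 0.75, averages 9.80 to 11.02 in knockout and 9.20 to 9.79 in wildtype). Endothelial markers were higher in 4 of 6 (median 0.71, averages 7.45 to 7.96 in knockout and 6.81 to 7.38 in wildtype). Fibroblast markers were higher in 4 of 7 (median 0.44, averages 9.87 to 11.25 in knockout and 9.73 to 10.59 in wildtype). None of the 5 smooth muscle markers and none of the 4 adipocyte markers passed the threshold in limma. The adipocyte markers had the largest median of these lists, 1.99, and varied widely, with averages of 5.37 to 12.85 in knockout and 5.39 to 10.75 in wildtype. At an unadjusted p under 0.05 there were 0 smooth muscle, 2 adipocyte and 0 enterocyte markers. T cell markers gave 1 fall among 4. The part of these cell types in the members' differences was not tested.

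Promoters of 6 members are printed here: Gtf2h3, Polr2h and Polr1d, the lower members whose groups did not overlap, Taf9b, the member that rose, and Polr2f and Polr3b, lower members chosen to show where CCGGAAG lies. Each is the 250 bases before the transcription start of RefSeq on build GRCm38.p6 (the start furthest upstream where there are several), written 5′ to 3′ along the gene's own strand. Capitals mark CCGGAAG, the core letters of an ETS factor site, or CACGTG, the E-box, on either strand (CTTCCGG is CCGGAAG read from the other strand).
Gtf2h3 (chr5:124578898-124579147, plus strand): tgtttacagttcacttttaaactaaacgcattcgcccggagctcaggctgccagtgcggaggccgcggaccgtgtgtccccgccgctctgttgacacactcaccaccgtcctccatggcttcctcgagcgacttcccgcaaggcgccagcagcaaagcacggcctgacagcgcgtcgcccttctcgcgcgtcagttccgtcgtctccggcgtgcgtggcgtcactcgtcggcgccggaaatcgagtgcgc
Polr2h (chr16:20717576-20717825, plus strand): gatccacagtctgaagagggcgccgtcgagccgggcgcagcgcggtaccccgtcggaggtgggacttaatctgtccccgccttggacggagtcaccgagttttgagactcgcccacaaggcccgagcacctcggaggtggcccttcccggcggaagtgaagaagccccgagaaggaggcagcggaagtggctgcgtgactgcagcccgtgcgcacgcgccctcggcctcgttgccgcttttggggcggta
Polr1d (chr5:147077096-147077345, plus strand): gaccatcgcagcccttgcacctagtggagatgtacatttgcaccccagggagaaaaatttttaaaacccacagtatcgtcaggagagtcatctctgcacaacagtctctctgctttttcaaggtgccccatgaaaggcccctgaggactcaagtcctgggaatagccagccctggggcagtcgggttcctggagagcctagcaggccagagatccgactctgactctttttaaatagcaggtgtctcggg
Taf9b (chrX:106221159-106221408, minus strand): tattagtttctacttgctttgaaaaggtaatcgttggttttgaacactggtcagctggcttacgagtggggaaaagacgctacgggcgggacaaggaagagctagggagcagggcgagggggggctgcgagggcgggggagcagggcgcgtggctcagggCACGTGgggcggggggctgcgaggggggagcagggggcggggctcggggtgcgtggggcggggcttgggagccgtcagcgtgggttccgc
Polr2f (chr15:79141075-79141324, plus strand): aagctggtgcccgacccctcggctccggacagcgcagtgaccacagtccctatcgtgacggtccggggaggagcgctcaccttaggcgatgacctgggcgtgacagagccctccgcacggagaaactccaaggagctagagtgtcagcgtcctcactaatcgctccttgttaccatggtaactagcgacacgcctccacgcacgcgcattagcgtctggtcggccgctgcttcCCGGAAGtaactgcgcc
Polr3b (chr10:84622048-84622297, plus strand): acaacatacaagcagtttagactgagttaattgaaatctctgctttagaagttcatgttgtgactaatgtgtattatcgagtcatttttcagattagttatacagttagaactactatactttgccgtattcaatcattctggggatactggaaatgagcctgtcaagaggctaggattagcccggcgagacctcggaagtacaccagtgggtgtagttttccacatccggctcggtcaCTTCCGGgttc
None of the motifs searched is in the windows of Gtf2h3, Polr2h and Polr1d, while Taf9b has a CACGTG. Of the 62 member genes, 55 had a promoter in the RefSeq table of 27025 genes. CCGGAAG was present in 18 of the 55 (32.7%, against 7.83% of all genes in the table). Among tested genes it was in 16 of 41 members (39.0%) and in 15.3% of 7746 genes. It was in 4 of the 17 lower members that had a promoter in the table (23.5%: Polr2f, Polr2j, Polr3b and Taf12). It was also in 12 of the 24 tested members that were not lower. Most members that hold it did not fall, which was also so for the 41 members as a whole. The difference between these shares was not tested. CACGTG was present in 11 of the 55 (20.0%, against 6.86% of all genes), and among tested genes in 14.6% of members and 9.88% of all. TATAAA, the TATA box, was in 10 of the 55 (18.2%, against 14.3% of all genes), and among tested genes in 14.6% of members and 8.91% of all. CAAAGTCCA, a sequence that HNF4 proteins bind, was in none of the 55 windows and in 0.451% of all genes. None of these motifs contains another. Among the 17 lower members TATAAA was in 2 and CACGTG in 1. A match is only a match of letters in this window.

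Both tested members that encode subunits of polymerase I alone were lower. Polr1a, the largest and catalytic subunit, had 10.73, 10.86 and 10.98 log2 units at the lowest, median and highest knockout arrays, against 10.92, 11.09 and 11.37 on the wildtype arrays. All 8 knockout arrays lay below the wildtype median, though the groups overlapped (log2 difference -0.26, SE 0.08, adjusted p 0.0213). Polr1e, which encodes one partner of a heterodimer on the surface of polymerase I, had 8.86, 9.24 and 9.64 in knockout against 9.47, 9.64 and 10.06 in wildtype, at 74.0% of the wildtype level (-0.43, SE 0.11, adjusted p 0.00717). A gene outside the symbol rule, Cd3eap, encodes the other partner of this heterodimer. It averaged 9.05 ± 0.28 in knockout and 9.64 ± 0.22 in wildtype (SD, n = 8 each), and its groups did not overlap (-0.59, SE 0.13, limma adjusted p 0.00208). Cd3eap was the 1 gene of 5 tested polymerase I partners past the threshold, and the median of these partners was -0.00 (-0.15 with 75th percentile scaling and -0.22 with median scaling). Znrd1 and Twistnb of this list also encode polymerase I subunits. They differed by -0.00 (adjusted p 0.979) and 0.58 (SE 0.41, adjusted p 0.300), and neither passed. The SL1 factors, which bring polymerase I to ribosomal DNA, were hardly measurable: Taf1d was the 1 tested member of 3. It spread from 6.97 to 8.50 in knockout and from 6.78 to 8.51 in wildtype, with a difference of -0.51 on slide 1 and 0.25 on slide 2.

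Of the 5 tested subunits that several polymerases share, 3 fell. Polr1d, a small subunit of polymerases I and III that takes part in their assembly, had little spread within the groups: 11.79, 11.89 and 12.00 in knockout against 12.01, 12.09 and 12.20 in wildtype. No knockout array reached the lowest wildtype array, although the fall was only -0.21 (SE 0.06, adjusted p 0.0184). Polr1c, its partner in the same sub-assembly, differed by -0.14 (adjusted p 0.393). Polr2h, a subunit common to all 3 enzymes, had 10.86, 11.22 and 11.39 in knockout against 11.49, 11.59 and 11.77 in wildtype. These groups did not overlap either, and Polr2h was at 75.5% of the wildtype level (-0.41, SE 0.08, adjusted p 0.00122). Polr2f, also common to all 3, had 11.17, 11.31 and 11.55 in knockout against 11.43, 11.59 and 11.94 in wildtype (-0.29, SE 0.09, adjusted p 0.0194). The highest knockout and lowest wildtype arrays overlapped. Polr2e, another common subunit, did not pass the threshold with all arrays (-0.19, adjusted p 0.198), and did so without wildtype array 8, whose value was far below the other wildtype arrays (-0.27, adjusted p 0.0231). With Gtf2h3 of TFIIH, Polr2h and Polr1d were the 3 lower members without overlap between the groups, 6.38% of the tested members against 4.36% of all genes. No member was higher without overlap, which 2.54% of all genes were.

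**Figure D2:**
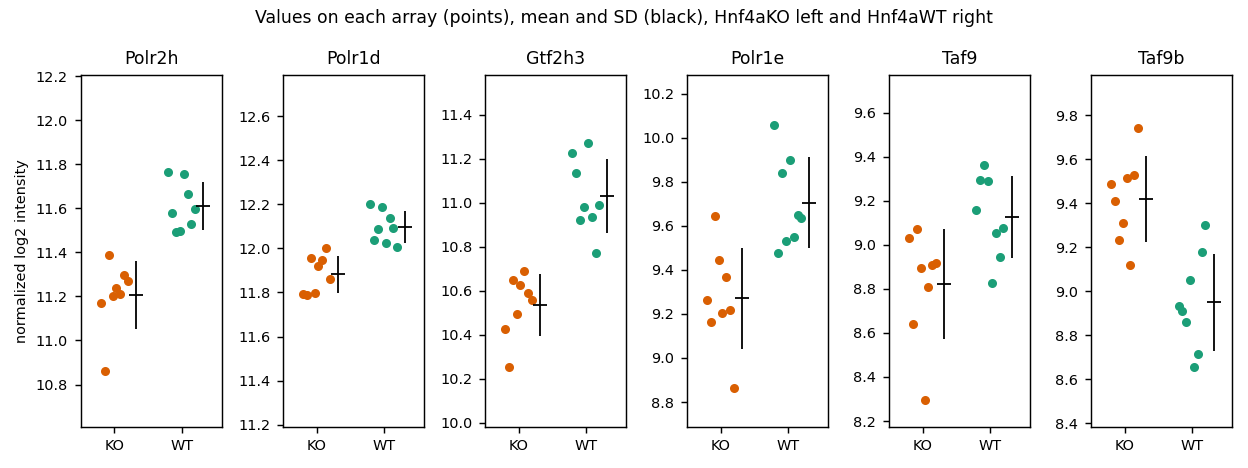
Normalised log2 intensity of 6 members on every array, Hnf4aKO on the left and Hnf4aWT on the right of each panel, with the mean and SD of 8 arrays in black; every panel spans the same number of log2 units. Polr2h, Polr1d and Gtf2h3 are separate between the groups, Polr1e and Taf9 overlap, and Taf9b is higher in knockout.

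Of the subunits of polymerase II alone, 5 had a probe under the symbol rule and 3 were tested. The single probes for its largest subunit Polr2a and for Polr2c were detected on no array. Polr2b and Polr2i had no probe under the rule and are not among the members. Polr2j, a core subunit that pairs with the product of Polr2c, had 10.68, 10.84 and 11.18 in knockout against 10.91, 11.17 and 11.46 in wildtype (-0.30, SE 0.09, adjusted p 0.0244). The ranges overlapped widely around 11. Polr2d and Polr2g encode the pair that forms the stalk of polymerase II. Polr2g differed by 0.09 (adjusted p 0.483). Polr2d differed by -0.17 on its brightest probe (adjusted p 0.256), while its 3 dimmer probes gave -0.22, -0.33 and -0.36, of which the -0.33 and -0.36 passed the threshold when all probes were tested (adjusted p 0.0207 and 0.0287).

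Among the members, polymerase III had 7 tested subunits of its own, of which 3 fell (median -0.25, all 7 differences negative). Without background correction, and likewise in the deposited series table, 2 fell and the median was -0.15. Polr3b, the second largest subunit, which forms the active centre with Polr3a, had 8.91, 9.17 and 9.30 in knockout against 9.28, 9.42 and 9.53 in wildtype. The ranges overlapped only at their ends (-0.26, SE 0.08, adjusted p 0.0138). Polr3e, one of a pair of subunits related to TFIIF, had 6.93, 7.22 and 7.28 in knockout against 7.15, 7.45 and 7.61 in wildtype (-0.25, SE 0.09, adjusted p 0.0345). Polr3e was a weak call: its difference was -0.42 on slide 1 and -0.08 on slide 2, and its adjusted p was 0.166 with 75th percentile scaling and 0.182 with median scaling. The largest subunit, Polr3a, differed by -0.04 (adjusted p 0.733). Polr3d, the partner of Polr3e, Polr3g, which is tied to proliferating cells, and Polr3k, which takes part in RNA cleavage and termination, differed by -0.24, -0.26 and -0.23 and did not pass the threshold (adjusted p 0.206 to 0.237). Without background correction Polr3d and Polr3g differed by -0.12 and -0.13. Polr3f was detected on no array.

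The factors that recruit polymerase III gave 2 falls among 7, with a median of -0.16. Gtf3a encodes TFIIIA, the zinc finger protein that binds the gene of the smallest ribosomal RNA. It had 9.62, 9.82 and 10.19 in knockout against 9.96, 10.06 and 10.36 in wildtype (-0.27, SE 0.09, adjusted p 0.0381), and its other probe gave a larger fall (-0.69, SE 0.10, adjusted p 0.000141 over all probes). Gtf3c4, a TFIIIC subunit with histone acetyltransferase activity, had 7.48, 7.64 and 8.15 in knockout against 7.57, 8.11 and 8.36 in wildtype (-0.36, SE 0.12, adjusted p 0.0342). Knockout array 6 held its highest knockout value, and the groups overlapped. The other TFIIIC subunits ranged from -0.31 for Gtf3c6 (adjusted p 0.124; -0.18 without background correction) to 0.02 for Gtf3c1, the largest of them. With median scaling neither Gtf3a (adjusted p 0.0536) nor Gtf3c4 (0.0512) passed, and with 75th percentile scaling Gtf3c4 did not (0.0565). Of the 7 tested polymerase III partners, which include the TFIIIB gene Brf2, none passed in limma (1 at an unadjusted p under 0.05; median -0.15; Brf2 -0.24, adjusted p 0.0898, the smallest of the list).

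Among the polymerase II factors the classes differed in their counts. None of the 4 tested members of TFIIE and TFIIF passed, and their median of -0.03 was near that of all genes. Gtf2e1, Gtf2e2 and Gtf2f1 differed by -0.07, 0.01 and 0.01, and Gtf2f2 by -0.13 (adjusted p 0.243). All 4 genes of TFIIA and TFIIB were too dim: Gtf2b, Gtf2a1 and Gtf2a2 were detected on 4 of the 16 arrays each and Gtf2a1l on none. The tested members of TFIIH, which opens promoter DNA and also serves nucleotide excision repair, were split. Gtf2h3, a subunit of its core, had 10.25, 10.57 and 10.69 in knockout against 10.77, 10.99 and 11.27 in wildtype. Every knockout array was below every wildtype array, and at 71.1% of wildtype this was the largest fall among the members (-0.49, SE 0.09, adjusted p 0.000556). Its promoter is among those printed above. Gtf2h4, the core subunit that engages the XPB helicase, had 8.86, 9.22 and 9.46 in knockout against 9.40, 9.52 and 9.94 in wildtype (-0.42, SE 0.11, adjusted p 0.0074). The core subunits Gtf2h1 and Gtf2h2 differed by -0.01 and -0.03 (adjusted p 0.956 and 0.889). Gtf2h5 was detected on 3 arrays and not tested. The TFIIH genes Ercc3, Ercc2 and Mnat1, outside the symbol rule, differed by -0.10, 0.11 and -0.17, and none passed (adjusted p 0.359, 0.491 and 0.0937). The TFII-I family had 2 tested members of 3, Gtf2ird1 at -0.03 and Gtf2ird2 at -0.12, neither past the threshold.

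The TAFs of TFIID and of the SAGA coactivator, some of which belong to both, gave 5 falls and 1 rise among 12 tested of 16. Taf5, a scaffold subunit of TFIID, had 7.54, 7.93 and 8.17 in knockout against 8.12, 8.24 and 8.51 in wildtype (-0.35, SE 0.09, adjusted p 0.00881). Its second probe did not share this direction (0.15, adjusted p 0.465 over all probes). Taf6, a histone fold subunit, had 7.19, 7.86 and 8.20 in knockout against 7.67, 8.38 and 8.63 in wildtype. Its spread was wide in both groups, and the fall of -0.47 (SE 0.16) had an adjusted p of 0.032. Taf10, found in TFIID and SAGA, had 11.35, 11.43 and 11.63 in knockout against 11.59, 11.64 and 11.88 in wildtype, with overlap at the extremes only (-0.25, SE 0.07, adjusted p 0.0112). Taf12, also in both complexes, had 9.90, 9.97 and 10.25 in knockout against 10.10, 10.26 and 10.38 in wildtype. Its brightest probe gave -0.23 (SE 0.07, adjusted p 0.0219; 0.0609 with median scaling) and the dimmer probes gave -0.36 and -0.49. Taf11, which pairs with Taf13, differed by -0.24 (adjusted p 0.196) and Taf13 by -0.03. Taf3, Taf5l and Taf15 differed by 0.08, -0.08 and -0.13 and did not pass. Taf4, listed under its older name Taf4a, ran from 5.37 to 10.35 in knockout and from 5.20 to 9.43 in wildtype, so that its difference of 0.62 had an SE of 0.74.

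Taf9 and Taf9b moved in opposite directions. The 2 genes encode paralogous histone fold proteins, either of which can pair with Taf6. Taf9 had 8.30, 8.90 and 9.07 in knockout against 8.83, 9.12 and 9.36 in wildtype, a fall that just passed (-0.30, SE 0.11, adjusted p 0.049). Taf9b had 9.12, 9.45 and 9.74 in knockout against 8.66, 8.92 and 9.30 in wildtype (0.47, SE 0.11, adjusted p 0.00355), at 138.3% of the wildtype level. The ranges of each gene overlapped. As a description with no test, the Taf9b value minus the Taf9 value of the same array was 0.16, 0.54 and 1.22 at the lowest, median and highest knockout arrays, against -0.50, -0.23 and 0.24 on the wildtype arrays. These are differences between probes of different genes and give no ratio of the transcripts. The rise of Taf9b passed the threshold without any 1 of the 16 arrays and was 0.42 on slide 1 and 0.51 on slide 2. Taf9 was the weakest of the calls: its adjusted p was 0.0658 with no detection filter and 0.0521 when every probe was tested, and its second probe gave -0.26 (0.347).

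**Figure D3:**
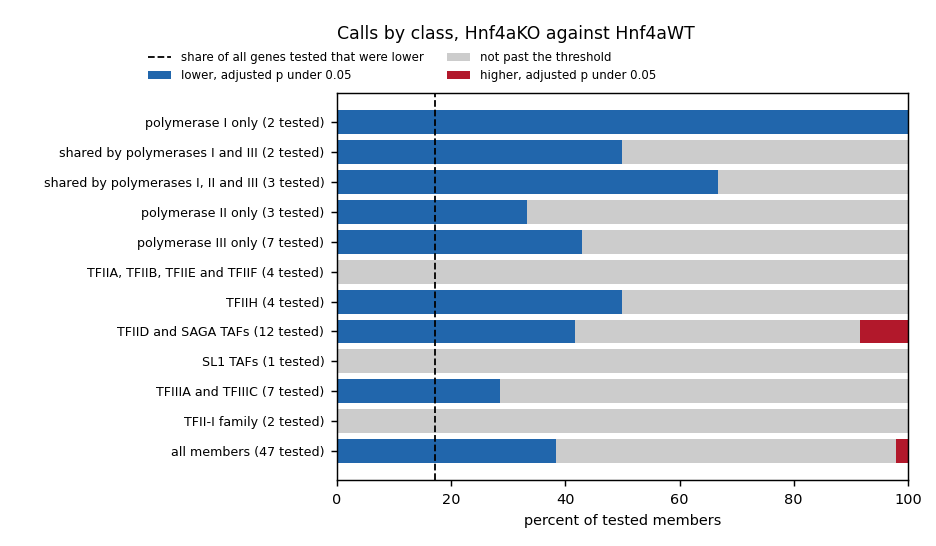
Percent of the tested members of each class that were lower, not past the threshold or higher in Hnf4aKO against Hnf4aWT (limma, adjusted p under 0.05), with the share of all tested genes that were lower as a dashed line at 17.2%. Several classes hold 1 to 4 genes, so that a single gene moves their share widely.

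Over all tested members 37 of 47 had the same sign on both slides (78.7%, against 77.2% of all genes), with medians of -0.24 (slide 1) and -0.13 (slide 2). All 19 members past the threshold did, but they were called from both slides together. In 14 of the 18 lower members all 8 knockout arrays lay below the wildtype median, and in the other 4 members 7 of them did. The calls came from these same arrays, so these counts describe the called members and give no separate support. Standard deviations within a group ran from 0.08 to 0.49 in knockout and from 0.07 to 0.63 in wildtype, leaving out Taf4. A fall of -0.21 could thus pass for tight members such as Polr1d, and a difference of -0.31 did not for Gtf3c6.

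**Figure D4:**
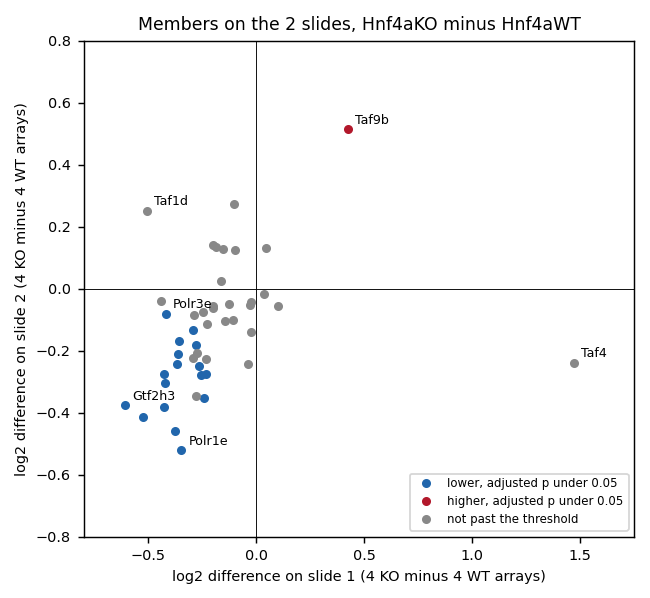
Log2 difference of 46 tested members on slide 1 (horizontal axis) against slide 2 (vertical axis), each from 4 Hnf4aKO and 4 Hnf4aWT arrays. The 17 lower members drawn lie in the lower left quadrant and Taf9b in the upper right. Taf1d and Taf4 are among the members that change sign between the slides.

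Of the falls, 6 lay close enough to the threshold that leaving out 1 array could end the call, while the differences stayed negative and of similar size. The fall of Taf9 no longer passed without any one of knockout arrays 2, 4, 5, 6, 7 and 8 or wildtype arrays 1, 2, 3, 4, 6 and 8 (adjusted p 0.0583 to 0.0930; over all 16 omissions the difference was -0.35 to -0.23). For Gtf3c4 this held for knockout arrays 1, 2, 3 and 4 and wildtype arrays 1, 4, 5, 6 and 8 (0.0508 to 0.0663; -0.43 to -0.32), and for Gtf3a for knockout arrays 2, 6, 7 and 8 and wildtype arrays 1, 2, 3 and 5 (0.0555 to 0.0753; -0.32 to -0.23). Taf6 lost its call without knockout arrays 2, 7 or 8 or wildtype arrays 1, 4, 5 or 8 (0.0542 to 0.0639; -0.56 to -0.38). Polr3e lost it without knockout arrays 3, 4 or 8 or wildtype arrays 1, 2, 3 or 4 (0.0508 to 0.0678; -0.29 to -0.22). Polr2j lost it without knockout arrays 5 or 7 or wildtype array 2 (0.0502 to 0.0515; -0.34 to -0.25). In the TAF class the count of falls was 3 without knockout array 2, 7 or 8 or wildtype array 1, 4 or 8, and the TFIIIA and TFIIIC class had none without knockout array 2 or wildtype array 1 or 5. The 12 other falls and the rise of Taf9b passed without any 1 array.

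Other probes of the same genes mostly showed the same direction. Of 15 members with several probes past the detection filter, 13 had probes of a single sign, and the exceptions were Taf5 and Gtf2e2. Over the 67 member probes tested one by one, 59 differences were negative, 25 fell (37.3%, against 17.0% of all 13460 probes) and 1 rose. Of these probes 35 belong to the 15 members with several, so the counts repeat genes and give no separate support. The matching shares of negative probes and of single-sign genes over the whole array were not computed. The other probes of Polr1a gave -0.76 (adjusted p 0.00404) and -0.17 (0.333), so the size of the fall depended on the probe. Taf6 gave -0.41 on its other probe (0.0155), and Polr1d -0.27 (0.0192) and -0.21 (0.175).

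**Figure D5:**
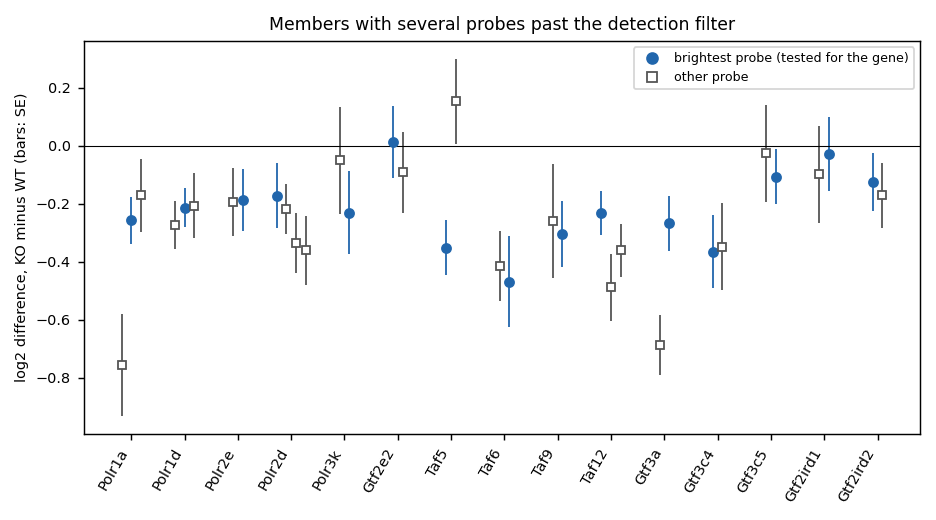
Log2 difference, Hnf4aKO minus Hnf4aWT, of every probe past the detection filter for the 15 members with several such probes. Filled circles are the brightest probe, which stands for the gene, open squares are other probes, and bars are standard errors; Taf5 and Gtf2e2 have probes on both sides of 0.

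Of the 15 members without a test, 9 were detected on no array: Polr2a, Polr2c, Polr3f, Gtf2a1l, Taf6l, Taf7, Taf7l, Taf1b and Gtf2i. A further 6 were detected on 1 to 4 arrays: Gtf2a1, Gtf2a2, Gtf2b, Gtf2h5, Taf8 and Taf1c. Genes with no probe under the symbol rule, such as Polr1b, Polr2b and Taf1, are not members and are not counted here. Several of these genes are needed for polymerase II transcription in every cell, so a probe without detection gives no level for its transcript. Of the tested members 44 were detected on all 16 arrays; the others were Taf3, Polr3d and Taf4, detected on 15, 12 and 11.

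Genes that work with the members, from lists outside the symbol rule, were lower at shares near or below the 17.2% of all genes in most lists. Their medians still lay below the -0.02 of all genes in the initiation (-0.15), Mediator (-0.12), elongation (-0.07) and SAGA (-0.14) lists. A downward shift was thus not particular to the members. At an unadjusted limma p under 0.05, in either direction, there were 4 of 9, 10 of 26, 6 of 17 and 4 of 9 genes, against 19 of the 47 members. Of all tested genes, 22.9% were at that level in the lower direction alone. The share of all genes in either direction was not computed, so these counts are not set apart from all genes. Among 9 polymerase II initiation partners 1 fell (11.1%, median -0.15): Rpap1, which takes part in assembling polymerase II, averaged 8.77 ± 0.21 in knockout and 9.15 ± 0.26 in wildtype (SD, n = 8 each; -0.39, limma adjusted p 0.0218). Mediator, the bridge between activators and polymerase II, had 3 falls (11.5%) and 1 rise among 26 (median -0.12). Its subunit Med27 fell to 9.28 ± 0.16 in knockout, against 9.68 ± 0.13 in wildtype (limma adjusted p 0.00198), and Med11 to 9.10 ± 0.20 against 9.41 ± 0.18 in wildtype (0.0266). Cdk19, one of a pair of alternative Mediator kinases, rose to 9.83 ± 0.20 in knockout, against 9.33 ± 0.15 in wildtype (limma adjusted p 0.00102; 0.0532 with median scaling). Elongation factors gave 4 falls among 17 (23.5%, median -0.07). Ell3, a dim member of the ELL family, averaged 5.93 ± 0.21 in knockout and 6.87 ± 0.23 in wildtype, with no overlap (-0.95, limma adjusted p 1.88e-05), and without background correction the difference was -0.47. Ctr9 of the PAF complex differed by -0.43 (0.0206; -0.26 without background correction) and Nelfcd of the pausing factor NELF by -0.32 (0.0364). Among 9 further SAGA genes 2 fell (22.2%) and 1 rose: the scaffold Trrap differed by -0.57 (limma adjusted p 0.0364; -0.37 without background correction), the acetyltransferase Kat2b by 0.56 (0.0224; 0.29 without it) and the deubiquitinase Usp22 by -0.18 (0.0463). The falls of Usp22, Trrap, Nelfcd and Med11 did not pass when single arrays were left out (13, 9, 9 and 4 of the 16 arrays), with adjusted p of up to 0.0842, 0.0739, 0.0746 and 0.0560. Leaving out 1 array at a time gave 0 to 2 falls in the SAGA list, 2 to 5 in the elongation list, 2 to 4 in Mediator and 1 to 3 among the initiation partners.

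The separate transcription machinery of mitochondria was also measured: 5 of 9 tested genes fell (55.6%, against 17.2% of all genes), none was higher, and the median was -0.39. Polrmt, the mitochondrial RNA polymerase, averaged 10.57 ± 0.12 in knockout and 11.09 ± 0.14 in wildtype (SD, n = 8 each; -0.52, SE 0.08, limma adjusted p 0.000143). Its highest knockout array, at 10.74, was below the lowest wildtype array, at 10.87. Tfb1m, a methyltransferase of the mitochondrial ribosomal RNA, averaged 7.19 ± 0.50 in knockout and 7.90 ± 0.22 in wildtype (-0.72, SE 0.18, adjusted p 0.00693; -0.45 without background correction). Tfam, which packages mitochondrial DNA and starts its transcription, averaged 9.15 ± 0.16 in knockout and 9.54 ± 0.25 in wildtype (-0.39, SE 0.11, adjusted p 0.0125).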

How the data were processed

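Total RNA from 16 samples of small intestine was amplified to biotin-labelled cRNA and hybridised to Illumina bead arrays, per the labels' protocols. The deposited intensity of each probe is not normalised, per the file headers. The authors also deposited a detection p-value for each intensity, which moves in steps that fit 798 negative control beads. The scanner's software was not given in the sources used here. A deposited series table keeps each array's rank order (rank correlation 1, medians 158.5 to 159.0) and served only as an alternative.

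Intensities were background corrected with limma 3.58.1 (R 4.3.3, normexp, offset 16, with the mean and SD of the negative controls derived from detection p-values), quantile normalised and converted to log2. The added offset shrinks the changes of dim probes. Compared with no background correction, the differences of several dim genes were nevertheless larger, as for Ell3 (-0.95, against -0.47 without it). Probes with a detection p under 0.05 on at least 6 of 16 arrays were kept (13460 probes). The brightest probe stood for each gene (10143 genes; for members, among the probes chosen by the symbol rule). Old symbols were updated through RefSeq GRCm38.p6 (20733 probes current, 3902 by unique synonym, 1062 kept), which also gave the promoters.

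The 2 genotypes were compared in limma (lmFit and eBayes) with genotype as the only term and Benjamini-Hochberg adjustment over all genes at 0.05. Every adjusted p is from limma, over genes unless said to be over probes, and every difference is knockout minus wildtype. The members, classes, marker lists and lists of related genes were chosen with earlier results of these data known. All members are counted, and the values of 1 member are not reported here. Full values are given for up to 4 members per class and 3 genes per related list past the threshold with the largest difference, or the smallest p where none passed, and for Taf9 and other members chosen after their values were seen. Replicates were taken as separate mice. The sample titles number the replicates but name no pairs, and the main fit did not use the numbers as pairs. Deviations of same-numbered arrays of the groups had correlations between -0.23 and 0.39 (6 of 8 over 0.1), which does not settle whether the numbers pair the mice. Alternatives changed the background correction, scaling, filter, probe rule, slide, replicate block, array weights and arrays used. The procedure was also run on simulated data. The changes planted there were larger than every change of a called member, so that run does not cover changes of the size reported. No deposited column was left unmapped (0). The number of arrays limits the precision.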

Additional observations from a re-analysis of the deposited data

Results flagged for a closer look

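In 7 of 126 sets of 8 arrays (each member or related gene that was examined, by group) the highest or lowest array stood apart from the rest by Dixon's criterion, which chance gives in about 1 of 20 sets. Polr2h on knockout array 2 was at 10.86, with the next array at 11.17, and it lies on the side of the fall. Gtf2e1 on the same array was at 9.49 (next 9.75). Gtf2e2 on knockout array 1 was at 9.22 (next 9.81). Gtf3c4 on knockout array 6 was at 8.15 (next 7.79), towards the wildtype level. Polr2e on wildtype array 8 was at 9.17 (next 9.70), below all knockout arrays. Taf15 on wildtype array 2 was at 10.85 (next 10.33). Ell3 on wildtype array 1 was at 6.38 (next 6.81). The falls of Polr2h and Ell3 passed the threshold without the array concerned, as did that of Gtf3c4 without knockout array 6.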

How the results depend on the processing

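The count of lower members was 14 to 18 under the 11 alternatives in background, scaling, filter, probe rule, block and array weights, and that of higher members was 1 in each. With the 4 knockout and 4 wildtype arrays of 1 slide, and so with fewer samples, the lower members were 1 on slide 1 and 2 on slide 2, and the higher members 0 on slide 1 and 0 on slide 2; over all genes 400 fell and 364 rose on slide 1, and 724 and 603 on slide 2. Leaving out 1 array at a time gave 13 to 18 lower members (13 without wildtype array 1), 1 to 1 higher members and an Hnf4a difference of -1.80 to -1.70. The 14 came with median scaling, under which 872 genes rose, against 1374; the falls of Polr1a, Polr1d, Polr2f, Polr2h, Polr2j and Taf10 were then -0.45, -0.43, -0.49, -0.61, -0.49 and -0.46, with all genes shifted to -0.11. Leaving out knockout arrays 1 and 6, chosen after seeing the data, gave 16 lower members, and neither Taf9 (adjusted p 0.0501) nor Polr2j (0.0510) passed. Polr3e also failed without background correction (0.0602) and in the deposited series table (0.0600). The replicate block, fitted although the numbers could not be shown to pair the mice, gave 17 lower members and 1 higher; Polr3e (0.0601) and Usp22 (0.0751) no longer passed and Brf2 did (0.0276). No result past the threshold reversed its direction. The causes of the changes by scaling, filter and block were not tested. Signal over background limits the 15 members without a test.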
